A study of Homo sapiens with 12 samples.

Results

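This report is about long retained introns, meaning retained intron events with an intron of 500 bp or longer and, averaged over libraries, no fewer than 10 reads. No measured difference between groups was used to choose them. In 293A-TOA cells without UPF1 knockdown, 401 of 10573 listed events met these limits, and in the UPF1 knockdown background 397 of 9649 did. In all, 482 introns of 283 genes qualified in at least 1 table and 316 in both. They cover 292 separate stretches of the genome, because introns of 1 gene often overlap and share reads. Their lengths ran from 501 to 9080 bp without UPF1 knockdown, with a median of 1038 bp, and to 10929 bp in the UPF1 knockdown background.

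The 293A-TOA cells derive from HEK293A, a human embryonic kidney line, and their polyA RNA was sequenced in 4 groups of 3 biological replicates. The groups were siSFSWAP, siNT (non-target siRNA), siSFSWAP/siUPF1 and siNT/siUPF1. The SFSWAP siRNA was a mixture of 2 siRNAs at 40 nM, the UPF1 siRNA was used at 30 nM, and knockdown lasted 5 days. All 12 libraries came from cells given 1 μM TG, the O-GlcNAcase inhibitor Thiamet-G, for the last 6 hr, so no cells without TG are compared here. Reads at all retained intron events ranged from 1812787 to 3030485 per library, and those at long introns from 150344 to 216394. SFSWAP reads at skipped exon events fell by 61.1% in siSFSWAP against siNT and by 59.8% in siSFSWAP/siUPF1 against siNT/siUPF1, and UPF1 reads by 79.8% and 76.8% in the corresponding UPF1 knockdowns. The ranges did not overlap in any of these 4 checks, each with an exact permutation p of 0.1, the smallest that 3 against 3 libraries allow. The tables hold no gene-level counts, so the cell line was not checked against marker genes.

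Most human introns are removed soon after they are transcribed, and an intron that stays in a polyadenylated transcript is called retained or detained. Short, GC-rich introns with weak splice sites are the usual class, so long introns are an uncommon subset. SFSWAP is a splicing regulator with SURP domains and an arginine/serine-rich domain, homologous to the Drosophila suppressor of white-apricot, and UPF1 is the RNA helicase on which nonsense-mediated decay depends. A transcript spliced downstream of its stop codon can be a target of that decay, as can 1 whose retained intron carries an early stop codon.

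The inclusion level of an intron runs from 0 (always spliced out) to 1 (never spliced out with that pair of splice sites). It compares reads on the intron and its edges with reads across the spliced junction, each divided by its effective length, which is 99 for the junction and the intron length plus 99 for the inclusion form. Reads anywhere inside the intron count as inclusion, including those from other transcripts that end, start or hold an exon there. An intron was called where the adjusted p of a quasi-binomial test with Benjamini-Hochberg adjustment over all retained introns was at most 0.05.

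The splice sites of the introns on which the results turn are shown first, because several pairs differ only in the site they use. Each 5′ splice site gives the last 3 exon bases and the first 6 intron bases, and each 3′ splice site the last 20 intron bases and the first 3 exon bases, all on the transcript strand of GRCh38. Capitals mark the GT or AG that the intron begins or ends with. The NAP1L1, LUC7L3 and LUC7L pairs each share their 3′ splice site, and within each pair the 5′ splice sites lie 28, 158 and 37 bp apart. The introns are CDK5RAP3 at chr17:47974449-47975158, CREBZF at chr11:85662458-85663523 and chr11:85660598-85662388, ATPIF1 at chr1:28236453-28237836, ATG3 at chr3:112532781-112534268, NAP1L1 at chr12:76047719-76048420 and chr12:76047719-76048392, LUC7L3 at chr17:50750695-50752199 and chr17:50750853-50752199, and LUC7L at chr16:189340-189967 and chr16:189340-189930.
CDK5RAP3 intron 5, 710 bp, 5′ splice site: tagGTaaag
CDK5RAP3 intron 5, 710 bp, 3′ splice site: atttcctgggcacttctcAGtgg
CREBZF 1066 bp intron, 5′ splice site: ctgGTaagg
CREBZF 1066 bp intron, 3′ splice site: tgtttttctttgtgctaaAGtgg
CREBZF 1791 bp intron, 5′ splice site: aagGTagta
CREBZF 1791 bp intron, 3′ splice site: tctctcttctctttgaacAGctt
ATPIF1 intron 2, 1384 bp, 5′ splice site: ccgGTgagg
ATPIF1 intron 2, 1384 bp, 3′ splice site: gagccaccgtgtccttgtAGagc
ATG3 intron 11, 1488 bp, 5′ splice site: tatGTatcc
ATG3 intron 11, 1488 bp, 3′ splice site: ccttagctaaaaacctttAGgta
NAP1L1 702 bp intron, 5′ splice site: gatGTatgt
NAP1L1 674 bp intron, 5′ splice site: actGTaata
NAP1L1 702 and 674 bp introns, 3′ splice site: gcatcttttctttgtggtAGggt
LUC7L3 1505 bp intron, 5′ splice site: gagGTaagt
LUC7L3 1347 bp intron, 5′ splice site: gagGTacat
LUC7L3 1505 and 1347 bp introns, 3′ splice site: ccccaaattttgcgttgtAGgac
LUC7L 628 bp intron, 5′ splice site: caaGTaact
LUC7L 591 bp intron, 5′ splice site: ggaGTgagc
LUC7L 628 and 591 bp introns, 3′ splice site: ctctggttcccatttcccAGgtt

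Long retained introns were mostly not introns of the reference transcript. Of the 401 without UPF1 knockdown, 46 matched an intron of the MANE Select transcript (1 reference transcript per gene) exactly, 203 lay wholly inside 1 of its exons, 150 had another layout and 2 were on unplaced sequence. Among 7616 retained introns under 500 bp, 67.2% were MANE introns and 4.57% lay inside a MANE exon, against 11.5% and 50.9% of the 399 placed long introns. For an intron inside a MANE exon the "retained" form is the reference exon itself, and the spliced form is the alternative. By position, 89 of the 401 were in the 3′ UTR, 21 in the 5′ UTR, 146 in coding sequence, 110 across a boundary of coding sequence and UTR, and 33 in genes with no MANE transcript there. The boundaries of 248 matched an intron of at least 1 GENCODE transcript.

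The long introns were also less GC-rich than the shorter ones, and more of them had a skipped exon listed inside. Their median GC content was 47.8%, with quartiles of 36.4% and 56.0%, against 55.5% (40.9% to 63.7%) for retained introns under 500 bp. Among MANE introns alone it was 44.7% for long and 56.8% for shorter ones. The median 5′ splice site score, a sum over 9 positions of log2 frequency against equal base use learned from 181871 MANE introns (median 8.26), was 7.43 for long MANE introns and 8.12 for shorter ones. It was 5.61 for long introns inside a MANE exon and 5.11 for shorter ones there. A skipped exon was listed inside 26.3% of the long introns and 2.09% of the shorter ones. The reference annotation had been extended by the authors with unannotated cassette exons, picked because they lie inside retained introns of erythroblasts. The part of these added exons in the 2 shares was not tested. The first 8 intron bases matched the ATATCCTT or GTATCCTT motif of minor-class (U12-type) introns, searched on the transcript strand only, in 3 of the 399, that is 0.752%, and in 0.276% of the shorter ones. These are descriptions, and no test of the differences was made.

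Nearly as many long introns were hardly ever spliced out as were open to a test. All 401 had at least 10 inclusion reads over the 6 libraries, but 187 had under 10 skipping reads, which left 214 to test. In siNT the untested introns had a median inclusion level of 0.973 and the tested ones 0.603, with quartiles of 0.265 and 0.885. The same split in the UPF1 knockdown background gave 212 tested and 185 untested introns. A level near 1 does not mean that the region was unspliced. For 124 of the 187 untested introns, a listed retained intron that shared 1 of the splice sites had more skipping reads, and for 77 of them at least 10 times as many. Forms of an intron could also differ widely away from a level of 1, as in ATPIF1. Its 1384 bp intron had a mean level of 0.0204 in siNT, while the 1379 bp form, with a 5′ splice site 5 bp further on, stood at 0.814.

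Among the 214 tested introns, levels differed by position. The median siNT level was 0.134 in 41 MANE introns, 0.793 in 108 introns inside a MANE exon and 0.502 in 64 others. Levels of MANE introns ran from 0.00277 in SKP1, a subunit of SCF ubiquitin ligases, to 0.914 in BCAM, a cell adhesion glycoprotein of the immunoglobulin family.

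**Figure D1:**
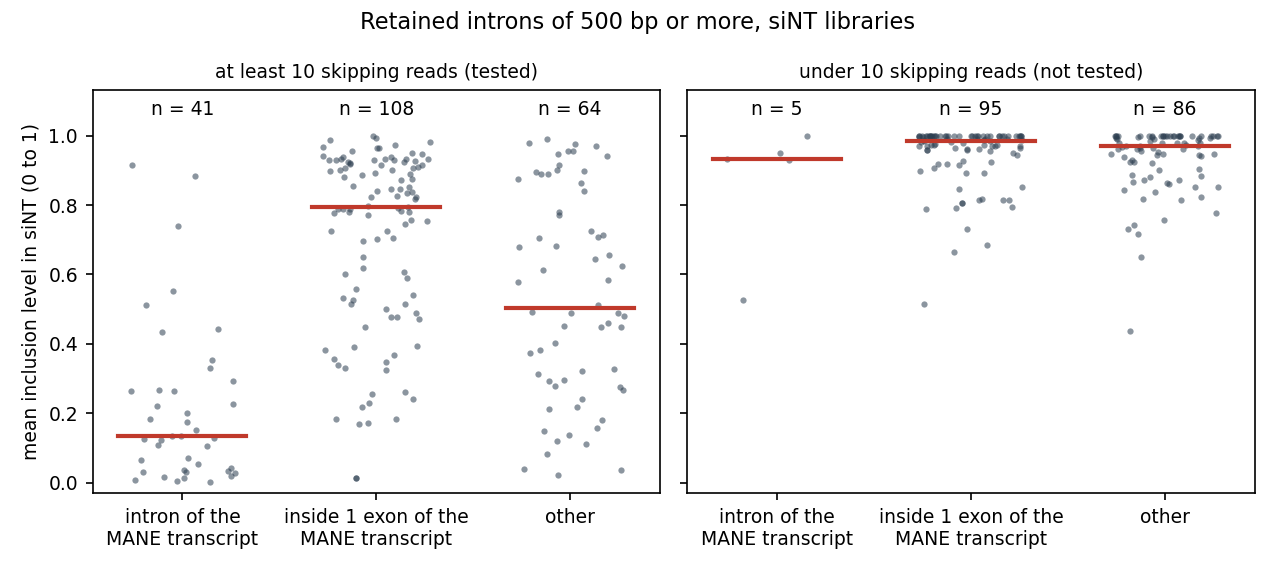
Mean inclusion level in the 3 siNT libraries (vertical axis, 0 to 1) of each placed long intron without UPF1 knockdown, by its position in the MANE transcript, for tested introns (left) and untested ones (right). Points are introns and red lines medians, and the tested MANE introns sit lowest with a median of 0.134.

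SFSWAP knockdown without UPF1 knockdown changed 23 of the 214 long introns, and the changes went both ways. In siSFSWAP against siNT, 10 introns of 8 genes had lower levels and 13 introns of 13 genes had higher levels. Over all 5845 retained introns tested, 532 (9.10%) were lower and 78 (1.33%) were higher, against 4.67% and 6.07% of the long introns. The median difference in level was 0.0019 in the long introns and -0.0062 in all, and 48.6% and 63.1% of differences were below 0. Without regard to the test, the 3 siSFSWAP and the 3 siNT levels did not overlap in 33 long introns that were lower (15.4%, against 19.6% of all) and in 34 that were higher (15.9%, against 5.00% of all). The calls depended on the test, since limma on log2 odds called 0 of the 214 introns, with 39 at an unadjusted p under 0.05, and 0 of all 5845. How many of all 5845 had such an unadjusted p with limma is not given here. Without a filter on low counts 1 of 401 was called. Higher calls numbered 8 without siNT library 1 and 6 without siSFSWAP library 2.

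Longer classes of intron had smaller shares of lower calls and larger shares of higher calls from 200 bp on. The shares were 9.61% lower and 0.972% higher in 1852 introns under 100 bp, 9.72% and 0.615% in the 2439 from 100 to under 200 bp, 7.99% and 2.39% in the 1340 from 200 to under 500 bp, 5.71% and 3.81% in the 105 between 500 and 1000 bp, and 3.67% and 8.26% in the 109 of 1000 bp or more. These 4 and 9 introns stand behind the last pair of shares. With siUPF1 the shares of lower calls did not decline in this way, at 2.78% under 100 bp and 3.6% at 1000 bp or more, and those of higher calls were 0.948% and 4.5%. Of 41 long MANE introns 4 (9.76%) were lower and 5 (12.2%) higher, against 9.84% and 0.64% of 4685 shorter MANE introns. Among MANE introns the share of lower calls was thus similar in long and shorter ones. Of 108 long introns inside a MANE exon 5 were lower and 4 higher with a median difference of -0.0067, against 24 lower, 3 higher and a median of -0.0478 in 163 shorter introns there. Long and shorter introns also differed in siNT level (medians of 0.603 and 0.068) and in depth (283 and 108 reads). MANE introns made up 41 of the 214 long and 4685 of the 5631 shorter introns tested. The part of these differences in the shares was not tested.

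**Figure D2:**
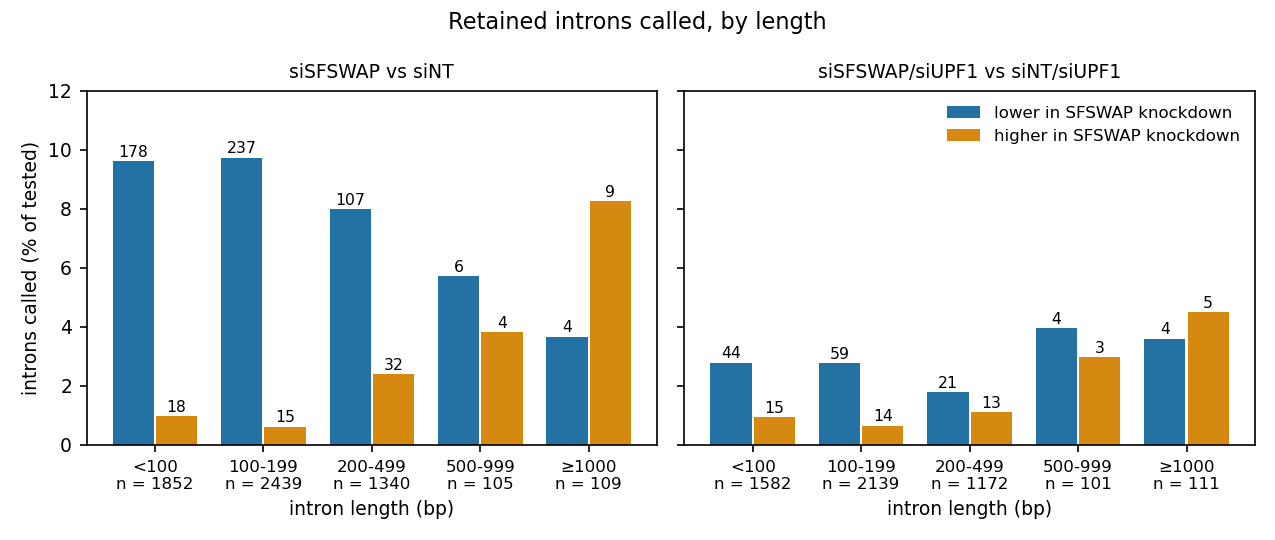
Percent of tested retained introns called lower (blue) or higher (orange) in SFSWAP knockdown, by intron length in bp, without UPF1 knockdown (left) and in the UPF1 knockdown background (right). Numbers on the bars are introns called, and at 1000 bp or more 4 were lower and 9 higher on the left.

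Among called introns the largest fall was in CDK5RAP3, which encodes an adaptor of the UFM1 protein ligase. Its intron 5 of 13, 710 bp in coding sequence, had inclusion levels of 0.467, 0.477 and 0.63 in siSFSWAP, against 0.935, 0.785 and 0.936 in siNT. Spliced reads numbered 40, 55 and 38 in siSFSWAP and 2, 12 and 3 in siNT. The 3 siSFSWAP libraries thus all lay below the 3 siNT ones, with a log2 odds ratio of -2.61 ± 0.61 (SE, adjusted p = 0.000854), and the call held with any 1 library left out. With siUPF1 the means were 0.573 ± 0.148 in siSFSWAP/siUPF1 and 0.809 ± 0.0204 in siNT/siUPF1 (SD, n = 3 each, quasi-binomial adjusted p = 0.0475), and this call held in 1 of the 6 fits that each left out 1 library.

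CREBZF, a basic leucine zipper protein, has 2 long introns in the 3′ UTR that moved in opposite directions. Its MANE transcript has a single exon, and the introns of 1066 and 1791 bp lie within it, separated by an exon of 69 nt. The upstream 1066 bp intron had levels of 0.207, 0.2 and 0.19 in siSFSWAP, against 0.554, 0.401 and 0.478 in siNT. Every siSFSWAP library was below every siNT library, with 233, 306 and 379 spliced reads against 83, 178 and 159, and a log2 odds ratio of -1.83 ± 0.15 (quasi-binomial adjusted p = 2.47e-09). The downstream 1791 bp intron had levels of 0.668, 0.781 and 0.758 in siSFSWAP, against 0.53, 0.522 and 0.625 in siNT. All 3 were higher in siSFSWAP (log2 odds ratio 1.15 ± 0.28, adjusted p = 0.00674), a call lost without siSFSWAP library 2 (adjusted p = 0.0522).

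The upstream CREBZF intron was not called in the UPF1 knockdown background, while the downstream one was. The 1066 bp intron had 0.209, 0.211 and 0.253 in siSFSWAP/siUPF1 and 0.236, 0.238 and 0.266 in siNT/siUPF1, ranges that overlap (adjusted p = 0.569). The 1791 bp intron had 0.795, 0.756 and 0.804 in siSFSWAP/siUPF1, against 0.612, 0.414 and 0.619 in siNT/siUPF1. It was higher in all 3 (log2 odds ratio 1.63 ± 0.34, adjusted p = 0.00322), with 30, 36 and 29 spliced reads against 55, 110 and 69. The exon between the introns and the 113 and 115 nt exons listed inside them are short, and reads on the listed exons came to at most 2.81% of the inclusion reads of the intron that holds each.

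**Figure D3:**
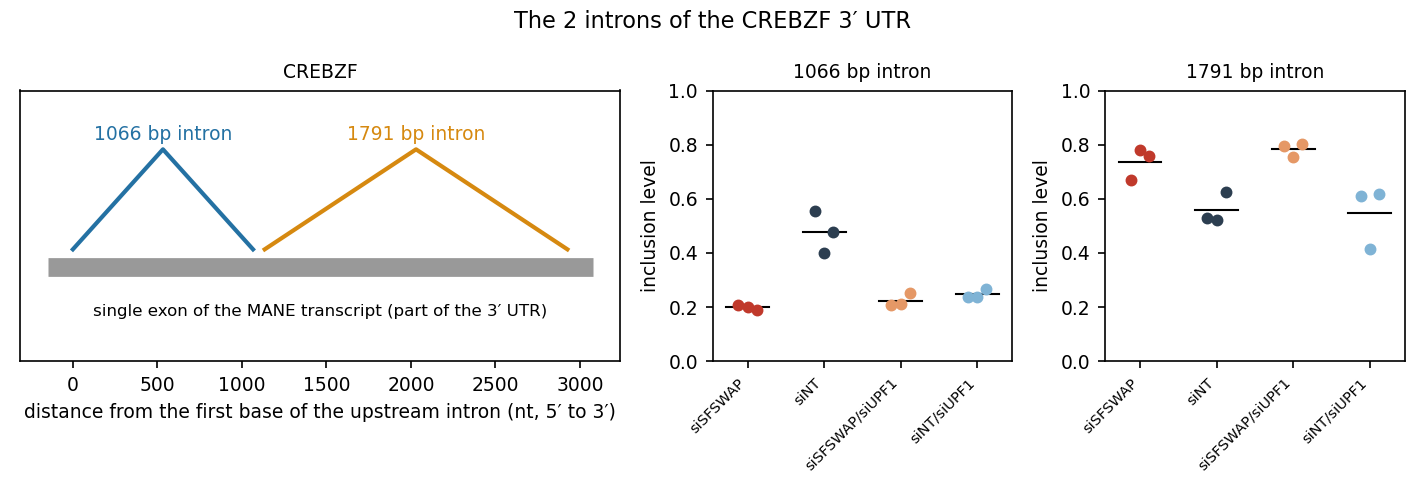
Left, the CREBZF introns of 1066 and 1791 bp drawn to scale on the single MANE exon by distance in nt from the first base of the upstream intron. Right, inclusion level (0 to 1) of each intron in every library, with points for libraries and lines for means, where the upstream intron stood at 0.401 to 0.554 in siNT and at or below 0.266 in the other groups.

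Introns of ZNF248 and PHF8 also fell in siSFSWAP. ZNF248, a zinc finger gene, has a 1712 bp intron in its last exon, with levels of 0.197, 0.2 and 0.155 in siSFSWAP, against 0.287, 0.428 and 0.277 in siNT (adjusted p = 0.00933). The groups were apart, and the call was lost without siNT library 2 or siSFSWAP library 3 (adjusted p of 0.0539 and 0.0621). PHF8, a histone lysine demethylase, has a 1102 bp intron across the end of its coding sequence, with 0.571, 0.526 and 0.553 in siSFSWAP, against 0.755, 0.635 and 0.845 in siNT (adjusted p = 0.0137). That call held in 3 of the 6 fits that left out 1 library, and was lost without siNT library 1 or 3 or siSFSWAP library 2.

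Both NAP1L1 introns fell in both backgrounds. The 674 bp intron lies inside the 702 bp intron, so the pair shares inclusion reads and its agreement is partly built in. NAP1L1 is a histone chaperone, and the introns of 702 and 674 bp lie in its 3′ UTR, inside the last MANE exon. The 702 bp form had 0.297, 0.292 and 0.294 in siSFSWAP, against 0.326, 0.327 and 0.414 in siNT. The 674 bp form had 0.126, 0.144 and 0.121 in siSFSWAP, against 0.154, 0.146 and 0.217 in siNT. Neither form's groups overlapped (adjusted p of 0.00624 and 0.00314), but both calls were lost without siNT library 3 (0.212 and 0.116). With siUPF1 the 702 bp form had 0.306, 0.302 and 0.345 in siSFSWAP/siUPF1, against 0.423, 0.442 and 0.423 in siNT/siUPF1, and the 674 bp form 0.172, 0.153 and 0.154, against 0.293, 0.263 and 0.223. The groups were again apart, with adjusted p of 7.03e-05 and 3.19e-06, and both held with any 1 library left out. The share of the pair's spliced reads that used the 702 bp form was 33.2% ± 2.93 in siSFSWAP and 32.8% ± 0.771 in siNT (SD, n = 3 each), a difference within the spread between libraries.

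Among SR proteins and SR-like factors, which bind exonic enhancers or join U1 snRNP at the 5′ splice site, 14 long introns of 7 genes were tested. In siSFSWAP against siNT 4 were lower, 2 were higher and 8 did not pass, with a median difference of -0.0079 against -0.0062 over all retained introns, of which 9.10% were lower and 1.33% higher. In siSFSWAP/siUPF1 against siNT/siUPF1, 2 of 13 were lower and 0 higher, against 2.59% and 0.979% of all. The median difference of these 13 was 0.016, of opposite sign to the calls, against -0.0009 over all. RSRP1 encodes an arginine/serine-rich protein, and its intron 3 of 4 (1516 bp) had 0.348, 0.47 and 0.288 in siSFSWAP, against 0.461, 0.606 and 0.585 in siNT (adjusted p = 0.0177). The groups overlapped slightly, at 0.47 and 0.461. With siUPF1 it had 0.326, 0.368 and 0.539, against 0.578, 0.764 and 0.603, without overlap (adjusted p = 0.0183). Leaving out 1 library ended these calls without siNT library 3 or siSFSWAP library 1 or 3, and without siSFSWAP/siUPF1 library 1 or 2, where adjusted p reached 0.137 and 0.151. A 318 nt exon listed inside this intron held 18.7% of its inclusion reads without siUPF1, and makes up 21.0% of its length. Other long RSRP1 introns tested in both backgrounds went the other way and were not called. Their differences were 0.0163 and 0.153 without siUPF1, and 0.119 and 0.175 with it.

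LUC7L and LUC7L3, human relatives of a yeast U1 snRNP protein, each have introns with alternative 5′ splice sites. The 628 bp form of LUC7L intron 9 had 0.0407, 0.0397 and 0.0461 in siSFSWAP, against 0.069, 0.0727 and 0.0571 in siNT (adjusted p = 0.00291), a fall that held with any 1 library left out. Its 591 bp form had 0.0793, 0.083 and 0.127, against 0.204, 0.159 and 0.184 (adjusted p = 0.00765), and this call was lost without siNT library 1 or siSFSWAP library 1 or 2, with adjusted p up to 0.0633. Neither LUC7L form was called in the UPF1 knockdown background, at adjusted p of 0.331 and 0.271.

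The LUC7L3 forms were called in opposite directions, but not in the same comparison. The 1505 bp form, in the last MANE exon, had 0.311, 0.376 and 0.346 in siSFSWAP, against 0.222, 0.191 and 0.355 in siNT. It was called higher (adjusted p = 0.0187) although siNT library 3 lay within the siSFSWAP range, and the call was lost without siNT library 1 or 2 or siSFSWAP library 2. With siUPF1 its difference was 0.016 (adjusted p = 0.734). The 1347 bp form had 0.192, 0.259 and 0.131 in siSFSWAP, against 0.354, 0.329 and 0.289 in siNT, and was not called (adjusted p = 0.0564). With siUPF1 it had 0.185, 0.14 and 0.17 in siSFSWAP/siUPF1, against 0.406, 0.307 and 0.232 in siNT/siUPF1, and was called lower (adjusted p = 0.0443), which held in 1 of 6 fits with 1 library left out. Of the spliced reads of the pair, 90.3%, 90.8% and 82.5% used the 1505 bp form in siSFSWAP, against 96.4%, 97.0% and 92.6% in siNT. The shares of the 2 groups did not overlap, and no test was made because the pair was picked after its levels were seen.

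The last called introns on that list moved little or had few spliced reads. SRSF2, an SR protein, has a 995 bp MANE intron in its 3′ UTR with 0.0227, 0.0299 and 0.0291 in siSFSWAP, against 0.0298, 0.0315 and 0.039 in siNT (adjusted p = 0.031). The groups overlapped narrowly, MFSD11 lies on the other strand there, and the call was lost without siNT library 3 or siSFSWAP library 1. SRSF10, an SR-like regulator of alternative splicing, has a 3614 bp intron in its last MANE exon with 0.928, 0.946 and 0.967 in siSFSWAP, against 0.801, 0.864 and 0.859 in siNT (adjusted p = 0.0481). That rise rested on 6, 5 and 4 spliced reads in siSFSWAP and 14, 14 and 18 in siNT, and held in 1 of 6 fits with 1 library left out.

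Introns that rose in siSFSWAP included several MANE introns that are almost always spliced out in siNT. ATPIF1 (now ATP5IF1), the inhibitor of mitochondrial ATP synthase, had levels at its intron 2 of 0.0561, 0.0618 and 0.0595 in siSFSWAP, against 0.015, 0.0205 and 0.0256 in siNT. Inclusion reads were 814, 832 and 858 in siSFSWAP, against 346, 418 and 584, while spliced reads were 915, 843 and 905, against 1518, 1331 and 1486. The log2 odds ratio was 1.6 ± 0.12 (adjusted p = 4.17e-10). In the UPF1 knockdown background the levels were 0.0726, 0.0695 and 0.0657 in siSFSWAP/siUPF1, against 0.0245, 0.034 and 0.0355 in siNT/siUPF1 (log2 odds ratio 1.18 ± 0.11, adjusted p = 9.79e-07). Both calls held with any 1 library left out.

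ATP5G3 (now ATP5MC3) encodes subunit c of the same enzyme, and its intron 4 (654 bp) had 0.0219, 0.0274 and 0.0252 in siSFSWAP, against 0.0159, 0.0145 and 0.0166 in siNT. These groups were apart (adjusted p = 0.0459), but the call was lost in each of the 6 fits with 1 library left out. In the UPF1 knockdown background the levels were 0.0554, 0.0315 and 0.0466 in siSFSWAP/siUPF1, against 0.0213, 0.0134 and 0.017 in siNT/siUPF1 (log2 odds ratio 1.42 ± 0.25, adjusted p = 0.000834), and this call held throughout. NDUFA10, a subunit of respiratory complex I, was called there alone. Its intron 5 of 9 (3042 bp) had 0.188, 0.2 and 0.224 in siSFSWAP/siUPF1, against 0.103, 0.107 and 0.127 in siNT/siUPF1 (adjusted p = 0.000845), while siSFSWAP averaged 0.156 ± 0.0333 and siNT 0.122 ± 0.0298 (SD, n = 3 each, quasi-binomial adjusted p = 0.154).

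NXF1 and ATG3 rose without UPF1 knockdown. NXF1 is the mRNA export receptor, and its intron 10, long known to be retained in a transcript that is exported, spans 1801 bp at chr11:62798576-62800376. Its levels were 0.149, 0.151 and 0.185 in siSFSWAP, against 0.107, 0.101 and 0.106 in siNT. The siSFSWAP libraries had 323, 321 and 253 spliced reads against 482, 569 and 562, at similar inclusion reads of 1084 to 1104 and 1112 to 1279 (log2 odds ratio 0.71 ± 0.11, adjusted p = 4.05e-05). ATG3, the E2-like enzyme of autophagy, had 0.0652, 0.0683 and 0.0594 in siSFSWAP, against 0.0185, 0.0391 and 0.0317 in siNT (log2 odds ratio 1.1 ± 0.23, adjusted p = 0.00153).

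The ATG3 intron begins with GTATCCTT, the minor-class motif, and its 5′ splice site score of -0.41 is far below the median of MANE introns. That score was learned from all MANE introns together, so it does not measure the strength of a minor-class site. The other tested long intron with the motif, in CCDC28B, was not called (difference -0.0634, adjusted p = 0.731). Neither NXF1 (0.137 ± 0.0372 in siSFSWAP/siUPF1 and 0.138 ± 0.036 in siNT/siUPF1) nor ATG3 (0.054 ± 0.0105 and 0.0473 ± 0.0152 in the same groups, SD, n = 3 each) was called with siUPF1, at quasi-binomial adjusted p of 0.997 and 0.757.

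Other rises lay in introns outside the MANE set. HMGN3, a nucleosome-binding protein, has a 590 bp intron with 0.122, 0.109 and 0.14 in siSFSWAP, against 0.0678, 0.0909 and 0.0935 in siNT (adjusted p = 0.00437). It was also called in the UPF1 knockdown background, with 0.12, 0.144 and 0.0953 in siSFSWAP/siUPF1, against 0.077, 0.0882 and 0.0718 in siNT/siUPF1 (adjusted p = 0.00708), where the call was lost without siSFSWAP/siUPF1 library 1 or 2. A 549 bp HMGN3 intron with the same 3′ splice site differed by -0.00322 (adjusted p = 0.603). PDCD2, a chaperone of a ribosomal protein, has a 791 bp intron with 0.219, 0.217 and 0.245 in siSFSWAP, against 0.111, 0.173 and 0.127 in siNT (adjusted p = 0.00401). DCAF7, a WD40 scaffold protein, has a 4965 bp intron in its 3′ UTR with 0.692, 0.738 and 0.64, against 0.494, 0.562 and 0.568 (adjusted p = 0.00748). The DCAF7 call was lost without siNT library 1 or siSFSWAP library 2, at adjusted p of 0.0572 and 0.0719.

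The largest rises among called introns rested on few spliced reads. VAMP1, a synaptobrevin of the vesicle SNARE family, has a 2047 bp intron with 0.699, 0.917 and 0.787 in siSFSWAP, against 0.456, 0.497 and 0.399 in siNT (adjusted p = 0.00753). It had 7, 2 and 7 spliced reads in siSFSWAP and 10, 12 and 22 in siNT, and TAPBPL overlaps it on the other strand, whose reads cannot be told apart because the counting is not stated to use strand. Without siNT library 3 or siSFSWAP library 2 its adjusted p was 0.0721 and 0.0575. KLF8, a Krüppel-like transcription factor, had at its intron 3 (3633 bp) 0.379, 0.467 and 0.481 in siSFSWAP, against 0.0321, 0.045 and 0.0877 in siNT (adjusted p = 0.00807), from a mean of 39.5 reads per library and 1, 1 and 3 spliced reads in siSFSWAP. The KLF8 call was lost without siSFSWAP library 3.

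ABHD11, a mitochondrial hydrolase, has an 870 bp intron with 0.934, 1 and 1 in siSFSWAP, against 0.637, 0.755 and 0.727 in siNT (adjusted p = 0.048), a call that held in 1 of 6 fits with 1 library left out. Reads of a 292 nt skipped exon inside it came to 56.7% of its inclusion reads, and that exon's level was 0.99 ± 0.0165 in siSFSWAP and 0.727 ± 0.0949 in siNT (SD, n = 3 each). The spliced reads of the intron are the reads that skip this exon, 1 in siSFSWAP and 34 in siNT, so the same measurement can be read as exon inclusion. Of the 23 calls, 15 were in introns with no skipped exon listed inside, 7 lower and 8 higher.

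In the UPF1 knockdown background 16 of 212 long introns were called, 8 lower and 8 higher in siSFSWAP/siUPF1 against siNT/siUPF1. That is 3.77% in each direction, against 132 lower (2.59%) and 50 higher (0.979%) of all 5105 tested. The median difference was 0.0103 in long introns and -0.0009 in all. Groups did not overlap in 22 long introns that were lower (10.4%, against 10.9% of all) and 33 that were higher (15.6%, against 7.19% of all). Calls fell to 6 without siSFSWAP/siUPF1 library 1 or library 2, to 9 without library 3, and to 10 without siNT/siUPF1 library 1, while higher calls came to 16 without siNT/siUPF1 library 3. With limma on log2 odds 0 of the 212 were called and 36 had an unadjusted p under 0.05, while the number among all 5105 is not given here.

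Beside the introns above, calls there were in genes of varied function. SOD2, the mitochondrial manganese superoxide dismutase, has a 3175 bp intron in its 3′ UTR with 0.389, 0.439 and 0.478 in siSFSWAP/siUPF1, against 0.541, 0.588 and 0.639 in siNT/siUPF1 (adjusted p = 0.0345). An intron of 828 bp at chr11:47415497-47416324, which carries no symbol in the table and lies in the 3′ UTR of the zinc transporter gene SLC39A13 by GENCODE, had 0.8, 0.717 and 0.883, against 1, 0.965 and 0.937 (adjusted p = 0.0456). ZNF248 had 0.186, 0.177 and 0.221, against 0.311, 0.276 and 0.345 (adjusted p = 0.0299). All 3 were lower without overlap, and the calls held in 1, 2 and 1 of 6 fits with 1 library left out.

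The rises there included BORCS7, a subunit of the complex that positions lysosomes, whose 797 bp intron in the 3′ UTR had 0.938, 0.917 and 1 in siSFSWAP/siUPF1, against 0.806, 0.751 and 0.761 in siNT/siUPF1 (adjusted p = 0.0288). FAM219B has a 1812 bp intron in its 3′ UTR with 0.445, 0.379 and 1 in siSFSWAP/siUPF1, against 0.0437, 0.0992 and 0.163 in siNT/siUPF1 (adjusted p = 0.0213), and MPI lies on the other strand. In siSFSWAP/siUPF1, FAM219B had 2, 5 and 0 spliced reads and BORCS7 3, 5 and 0. Both calls held in 2 of 6 fits with 1 library left out.

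The comparisons with and without siUPF1 share no library, and 194 long introns were tested in both. The 9 introns called in both make up 39.1% of the 23 and 56.2% of the 16, and 5 of them were lower in both and 4 higher in both. They are in CDK5RAP3, RSRP1 (1516 bp), ZNF248 and NAP1L1 (2 introns), which were lower, and ATPIF1, ATP5G3, HMGN3 and CREBZF (1791 bp), which were higher. Of the 21 called in only 1 comparison, 20 differed in the same direction in the other, the exception being NXF1, whose difference was -0.000801 in the UPF1 knockdown background. Over the 194 introns the differences correlated with Spearman's rho of 0.44, given as a description because introns of 1 gene share reads. The same counts and correlation over all retained introns are not given here, so this agreement is not read as particular to long introns.

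**Figure D4:**
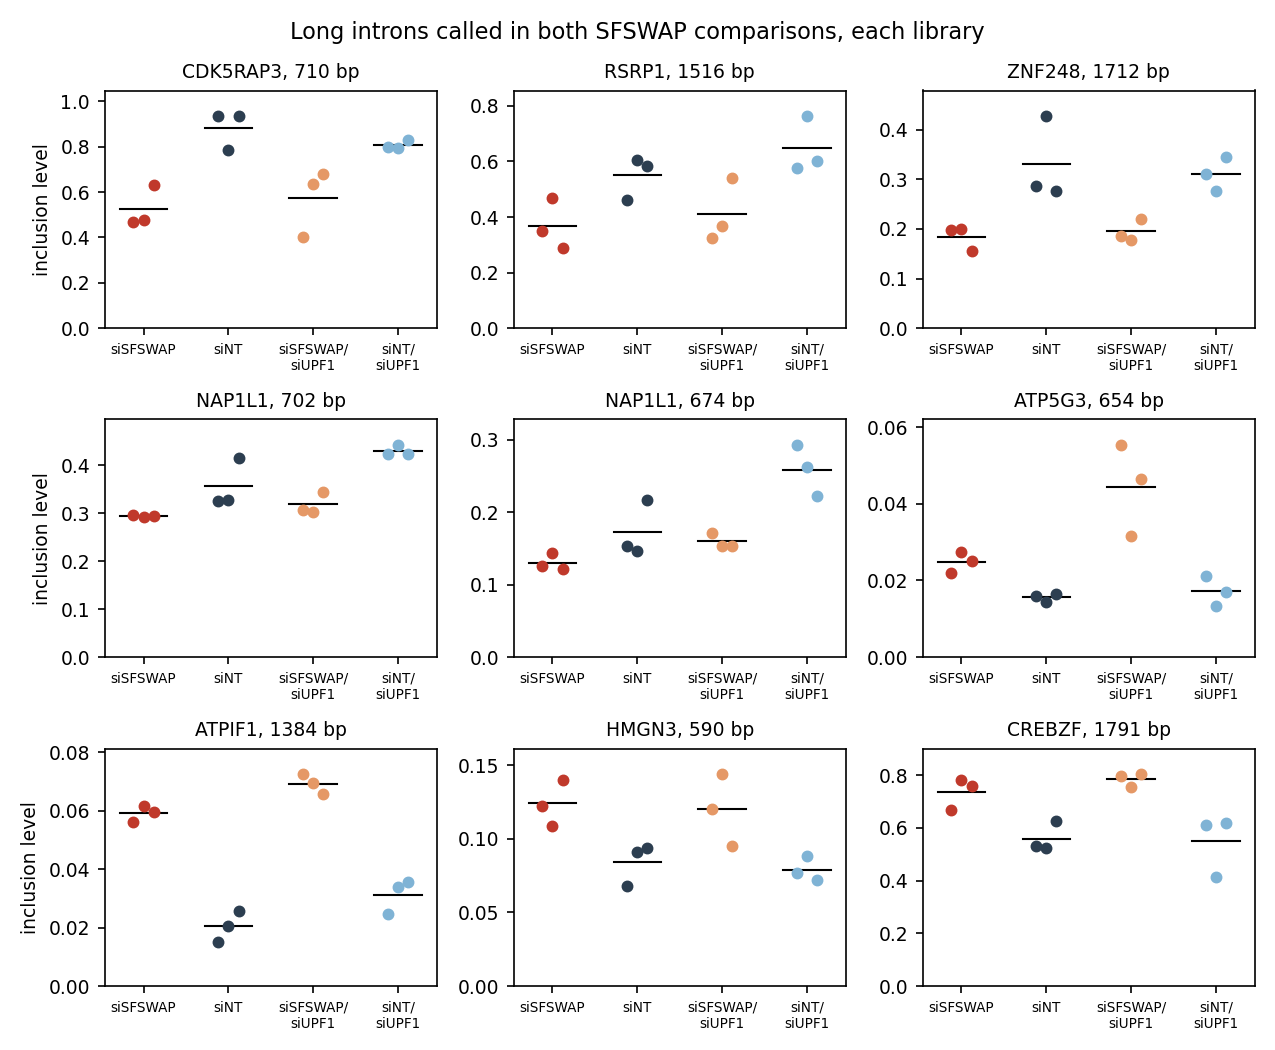
Inclusion level (0 to 1, each panel on its own scale from 0) in every library for the 9 long introns called in both SFSWAP comparisons, with points for libraries and lines for means of 3. CDK5RAP3, RSRP1, ZNF248 and the NAP1L1 pair were lower in SFSWAP knockdown, and ATP5G3, ATPIF1, HMGN3 and CREBZF were higher.

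**Figure D5:**
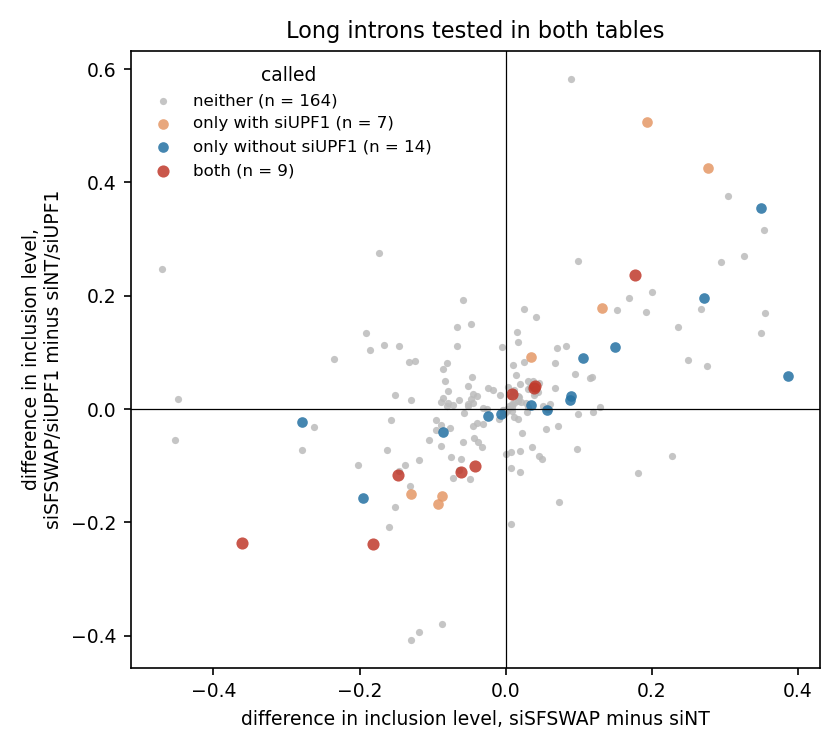
Difference in inclusion level in siSFSWAP minus siNT (horizontal) and siSFSWAP/siUPF1 minus siNT/siUPF1 (vertical) for the 194 long introns tested in both, with colour for the comparison in which each was called. The 9 called in both (red) have the same sign on both axes, 5 below 0 and 4 above 0, and several lie close to the origin.

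Few long introns were called between libraries with and without siUPF1. The paper introduces the RNA-seq in the UPF1 knockdown background as a further experiment. An effect of UPF1 knockdown therefore cannot be told apart here from a difference between the sets of libraries. The same limit applies to a difference of the SFSWAP effect between backgrounds. SFSWAP reads were also lower in siNT/siUPF1 than in siNT, as given above. In siNT/siUPF1 against siNT, 27 of 209 long introns had an unadjusted p under 0.05, against 307 of 3034 retained introns. After adjustment 1 of the 209 was called, against 2 of the 3034 (0.0659%). That 1 was the 1066 bp CREBZF intron, with 0.236, 0.238 and 0.266 in siNT/siUPF1, against 0.554, 0.401 and 0.478 in siNT (log2 odds ratio -1.42 ± 0.17, adjusted p = 0.00124). All 3 siNT/siUPF1 libraries lay below the siNT libraries, and the call held with any 1 library left out. In siSFSWAP/siUPF1 against siSFSWAP, 17 of 207 long introns had an unadjusted p under 0.05, against 149 of 3015 retained introns. After adjustment 1 of the 207 was called, against 5 of the 3015 (0.166%). It was the 674 bp NAP1L1 intron, with 0.172, 0.153 and 0.154 in siSFSWAP/siUPF1, against 0.126, 0.144 and 0.121 in siSFSWAP (adjusted p = 0.023), a call lost without siSFSWAP library 1 or 3 or siSFSWAP/siUPF1 library 3.

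The effect of SFSWAP knockdown differed between UPF1 backgrounds at 1 of 251 long introns, the only 1 of all 3435 retained introns so called (0.0291%). It was again the upstream CREBZF intron, whose SFSWAP difference was -0.0226 with siUPF1 and -0.279 without, so that the log2 odds ratio was higher by 1.65 ± 0.21 with siUPF1 (Wald test in a fit of 12 libraries, adjusted p = 0.000158). Its mean level was 0.199 ± 0.00885 in siSFSWAP, 0.224 ± 0.025 in siSFSWAP/siUPF1, 0.247 ± 0.0165 in siNT/siUPF1 and 0.478 ± 0.0761 in siNT (SD, n = 3 each). The 5 next introns by p were in KLF8, NXF1, HUS1 (a DNA damage checkpoint clamp subunit), CELF2 (an RNA-binding splicing regulator) and ATG3, all with an adjusted p of 0.939. Their differences between backgrounds on the log2 scale were -3.53 ± 1.25, -0.71 ± 0.25, 1.81 ± 0.66, 2.2 ± 0.84 and -0.89 ± 0.34 (SE), in that order.

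Long introns were sparse or absent in the other gene lists examined. None of the long introns tested, 3 of branchpoint, U2 and snRNP factors (SF3B1 and SUGP2), up to 4 of other splicing regulators (CELF2, QKI and RBM41), 1 of splicing kinases (CLK1) and 2 of cytosolic ribosomal proteins (RPL28 and RPS3A) was called in either SFSWAP comparison. Their differences in siSFSWAP against siNT ran from -0.146 to 0.0824. No tested long intron belonged to the lists of hnRNP proteins, DNA repair, chromatin modifiers, m6A methylation, nonsense-mediated decay or O-GlcNAc metabolism. These lists are not complete. HUS1 is outside the DNA repair list, and PHF8, NSD1 and KMT5B are outside that of chromatin modifiers, although each had a tested long intron.

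The longest introns could be measured only through a handful of spliced reads. The 9080 bp intron of BRWD1, a bromodomain and WD-repeat protein, had 0.838, 0.631 and 0.571 in siSFSWAP, against 0.839, 1 and 0.906 in siNT, from 2, 6 and 11 spliced reads against 1, 0 and 1. Its groups did not overlap, but the adjusted p was 0.225. The next by length, in QKI (6974 bp), ZNF652 (6410 bp) and ZNF714 (6075 bp), differed by -0.109, -0.0669 and -0.0373 with adjusted p of 0.649, 0.873 and 0.771. Reads of a 75 nt exon inside the QKI intron came to 59.5% of its inclusion reads. The tested introns with the highest siNT levels, in SGO1, TRABD, MRPL4 and ATXN2L, stood at 1, 0.994, 0.99 and 0.988 there and at 0.833, 0.949, 0.967 and 0.928 in siSFSWAP, and none was called (adjusted p of 0.0819, 0.298, 0.515 and 0.167). For SGO1 all 19 spliced reads came from siSFSWAP library 3. These introns were picked for a high siNT level, and a test needed at least 10 spliced reads over both groups. Introns so near 1 in siNT can pass largely through spliced reads in siSFSWAP, so their lower levels there are not read as a result.

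At the length limit, introns just inside were those of GLYCTK and THUMPD1 (501 bp each) and DKC1 (504 bp), and those just outside were in TMEM205 (498 bp) and NAA38 (496 bp). In siSFSWAP against siNT the THUMPD1 and DKC1 introns differed by -0.096 and -0.0513, and the TMEM205 and NAA38 introns by -0.0478 and 0.281, while the GLYCTK intron was not tested.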

How the data were processed

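The sample labels gave the groups, and the study's definition of the difference as siNT minus siSFSWAP told which columns hold which group. The replicates were biological replicates per the study's methods. The authors trimmed reads with cutadapt 1.9.1, aligned them with STAR 2.7 to GRCh38.p8 and counted splicing events with rMATS in its mode that adds reads on introns to junction reads. The paper describes the annotation used with GRCh38.p8 as RefSeq plus unannotated cassette exons that lie inside retained introns. The deposited cells hold raw inclusion and skipping counts, with 3 libraries joined by commas in 1 cell, so a library is named by its place there. The deposited p-values, FDR and differences in level are the authors' own comparisons and were not used. The authors' effective lengths were used to compute inclusion levels. Duplicated events were counted once.

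Events were tested where libraries averaged 10 or more reads, with at least 10 inclusion and 10 skipping reads over the libraries compared. A quasi-binomial model was fitted per event, its dispersion moderated with limma 3.58.1 and floored at 1, and tested two-sided with an F test, with Benjamini-Hochberg adjustment over all retained introns. The difference between UPF1 backgrounds was a Wald test in a fit of all 12 libraries. Levels across the separately made tables were compared at identical coordinates. The design had also named edgeR as an alternative, which was not run because the joined cells are not a count column. Fits ran in R 4.3.3, summaries in Python with numpy, pandas, scipy and matplotlib, and the fits were tested on simulated data. Positions are from GENCODE 44 and its MANE Select transcripts.

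The members, gene lists and rules were chosen with earlier results of these data known. The rule named the 8 largest rises and 8 largest falls, 1 per gene, in each SFSWAP comparison among called introns averaging 50 or more reads whose groups did not overlap, up to 5 and 3 in each direction in the UPF1 comparisons, the 6 lowest adjusted p for the difference between backgrounds, called introns of the lists, the 4 longest and the 4 with the highest siNT level. Alternatives were an average of 30 or more reads, no filter, limma on log2 odds with a pseudocount of 0.5, no dispersion floor, 1 event per intron, no skipped exon listed inside, at least 1000 bp, and leaving out each library. Some introns that met these rules are not reported here.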

Additional observations from a re-analysis of the deposited data

Results flagged for a closer look

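The effect of SFSWAP knockdown on the upstream 1066 bp intron of the CREBZF 3′ UTR differed between the UPF1 backgrounds by the test of that difference, with a log2 odds ratio higher by 1.65 with siUPF1 (adjusted p = 0.000158). The level was 0.199 ± 0.00885 in siSFSWAP and 0.478 ± 0.0761 in siNT, and 0.224 ± 0.025 in siSFSWAP/siUPF1 and 0.247 ± 0.0165 in siNT/siUPF1 (SD, n = 3 each, Wald test on the quasi-binomial fit). The adjusted p ran from 9.87e-06 to 0.00141 when each of the 12 libraries was left out in turn, and was 0.436 with limma on log2 odds. Groups of 3 libraries were not examined for outlying samples. UPF1 background cannot be told apart from a difference between the sets of libraries with and without siUPF1.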

How the results depend on the processing

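Calls of long introns depended most on the test and the filter. With limma on log2 odds every comparison had 0 called, with 39, 36, 13, 9 and 14 long introns at an unadjusted p under 0.05 for SFSWAP knockdown without and with siUPF1, UPF1 knockdown in siNT and in siSFSWAP cells, and the difference between backgrounds. Without a filter on low counts the numbers were 1 (1 lower, 0 higher), 0, 0, 0 and 1, with 66, 57, 27, 20 and 13 at that p. Counts at that p over all retained introns are not given for these settings. The cause was not tested. Of introns with no skipped exon inside, 15 were called without siUPF1 (8 higher), 5 were higher with siUPF1, and 0 were called for UPF1 knockdown in siNT cells and for the difference between backgrounds, since the CREBZF intron holds an exon. Of introns of at least 1000 bp, 13 were called without siUPF1 (4 lower), 9 with siUPF1 (4 lower, 5 higher) and 0 for UPF1 knockdown in siSFSWAP cells. A mean of at least 30 reads left 5 lower with siUPF1. Leaving out 1 library gave 16 to 26 calls without siUPF1 (7 to 13 lower, 6 to 13 higher), 6 to 23 with siUPF1 (2 to 7 lower, 4 to 16 higher), 1 to 3 and 0 to 3 for UPF1 knockdown in siNT and in siSFSWAP cells, and 1 to 1 for the difference. UPF1 knockdown in siNT cells gave 3 calls without siNT library 3 or siNT/siUPF1 library 1 and 2 without siNT/siUPF1 library 3, and in siSFSWAP cells 0 without siSFSWAP library 1 or 3 or siSFSWAP/siUPF1 library 3 and 3 without siSFSWAP/siUPF1 library 2. Higher calls without siUPF1 fell to 8 without siNT library 1 and to 6 without siSFSWAP library 2. Of 42 calls at named introns, 16 held with any 1 library left out, 42 without the dispersion floor, 39 with at least 30 reads, 2 without a filter and 0 with limma, and none changed direction. Using 1 event per intron changed no count. No paired analysis was possible because the joined cells carry no replicate numbers. Depth limits introns with few spliced reads.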
